A study of Mus musculus with 16 samples.

Results

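Immediate early genes were followed across 4 cell types of the mouse liver: Fos, Fosb, Jun, Junb, Jund, Egr1, Ier2, Dusp1, Atf3 and Nr4a1. These 10 genes, of 47729 gene rows in each table, were selected by symbol after their levels in these data had been seen, so that their levels and their differences between labels are given as a description. RNA was sequenced from endothelial cells (ECs), hepatic stellate cells (HSCs), Kupffer cells (KCs) and hepatocytes (HCs) of unchallenged adult livers, with 2 libraries for each cell type and genotype label (16 libraries, n = 2 per group). KO libraries came from mice with a floxed exon 7 of Zeb2 and the tamoxifen-inducible Cdh5-CreERT2, whose Cre is driven by an endothelial promoter. WT libraries came from littermates without Cre, and both genotypes received 2 mg tamoxifen a day for 5 days. According to the methods of the study the mice were 8-week-old males, mRNA was measured 2 weeks after tamoxifen, and the mice carried a GFP reporter allele. The deletion was thus aimed at ECs, and HSCs, KCs and HCs of KO mice were cells next to the targeted endothelium. All cells were released by digestion of the liver. According to the paper, centrifugation separated HCs from the other cells. The latter then went through lysis of red blood cells, staining and sorting into HSCs, KCs and ECs, so that handling differed between HCs and the other cell types.

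Immediate early genes are transcribed within minutes of a growth factor, stress or calcium signal and need no new protein for it. Serum response factor with its ternary complex partners and CREB, a factor that responds to cAMP and calcium, sit on many of their promoters beforehand, and their mRNAs are short-lived. Several encode transcription factors, such as the Fos and Jun proteins that pair to form AP-1, and others, such as the phosphatase Dusp1, switch the inducing kinases off again. The family is also known to be induced in cells released from tissue by enzymes.

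Promoters of 8 of the 10 genes were found in RefSeq (GRCm38.p6), and Egr1 and Ier2 were not among them. The 150 bases before the start of 5 genes are printed to show how the family differs in sequence between genes that differed together in KCs (Fos, Jun, Junb and Dusp1) and 1 gene, Fosb, whose labels overlapped there. Capitals mark the letters of the cAMP response element TGACGTCA or its first 5 letters TGACG (the second lies within the first), the EGR site GCGNGGGCG and the TATA box TATAAA, searched on both strands.
Fos: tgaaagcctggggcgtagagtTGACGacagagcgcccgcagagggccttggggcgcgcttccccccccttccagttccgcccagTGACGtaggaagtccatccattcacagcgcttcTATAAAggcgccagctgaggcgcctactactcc
Jun: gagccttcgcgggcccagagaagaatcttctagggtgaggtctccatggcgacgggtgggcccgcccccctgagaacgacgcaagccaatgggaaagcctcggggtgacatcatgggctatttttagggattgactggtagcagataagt
Junb: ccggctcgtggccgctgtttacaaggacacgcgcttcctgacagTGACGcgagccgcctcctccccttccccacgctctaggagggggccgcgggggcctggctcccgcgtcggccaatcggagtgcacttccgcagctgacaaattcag
Dusp1: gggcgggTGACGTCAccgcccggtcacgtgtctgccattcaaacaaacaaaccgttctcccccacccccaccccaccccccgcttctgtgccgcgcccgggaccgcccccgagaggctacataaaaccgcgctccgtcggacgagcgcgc
Fosb: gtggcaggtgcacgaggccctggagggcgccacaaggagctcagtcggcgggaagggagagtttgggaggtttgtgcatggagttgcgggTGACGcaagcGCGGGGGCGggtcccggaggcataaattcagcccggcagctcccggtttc

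These stretches lie at chr12:85473740-85473889 on the + strand for Fos, and on the - strand at chr4:95052223-95052372 for Jun, chr8:84978749-84978898 for Junb, chr17:26508473-26508622 for Dusp1 and chr7:19310046-19310195 for Fosb. Over the full 250 bases before the start, the letters TGACG were present in 6 of the 8 promoters (Fos, Fosb, Junb, Dusp1, Atf3 and Nr4a1) and in 17.8% of all 32851 promoters in the table. The full element was present in 1 of the 8, Dusp1, and in 1.55% of all promoters. Fos was the 1 gene of the 8 with TATAAA, which 12.4% of all promoters held. The EGR site was present in Fosb and Nr4a1 and in 4.70% of all promoters. A CArG box, the core to which serum response factor binds, was present in none of the 8 windows and in 1.47% of all, and the AP-1 site TGANTCA in none of the 8 and in 6.75% of all. A match of letters is a description of this window and says nothing of a factor bound there.

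The total count on genes was lowest at 12872706 and highest at 15690506 reads, and levels are given as CPM, a count relative to this total. The smallest level taken as visible, 3 counts, corresponded to 0.191 to 0.233 CPM and covers counting error only. The cell types carried their markers, with the highest mean in the labelled cell type for 9 of 10 endothelial, 10 of 10 stellate cell, 10 of 10 KC and 15 of 15 hepatocyte markers. Zeb2 was at 106 CPM in both EC libraries labelled WT and at 199 and 130 CPM in those labelled KO, and for this reason the text speaks of labels. These counts cover the whole gene, while exon 7 alone was floxed, so they cannot show whether the exon was deleted. The paper reports efficient loss of Zeb2 mRNA in ECs of the KO mice. Hepatocyte RNA was unequal between labels, with 15 markers summing to 15261 and 30753 CPM in ECs labelled WT against 2599 and 3480 CPM in ECs labelled KO. In HSCs the same markers summed to 4241 and 9796 CPM under WT against 752 and 1862 CPM under KO. Their part in the label differences of HSCs was not tested. In KCs, WT 31 had 9163 CPM of the macrophage receptor Marco, and the other 3 KC libraries between 368 and 670 CPM.

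The 10 genes together took a large part of the RNA of the sinusoidal cells. In HSCs they held between 3.91% and 4.85% of all counts, in ECs between 2.15% and 3.52%, in KCs between 0.673% and 3.34% and in HCs between 0.304% and 0.533%. The lowest share, in the HC library KO 41, had a 95% Wilson interval of 0.301% to 0.307%, and the highest, in HSC WT 32, one of 4.84% to 4.87%, which cover counting error only. In shares of the library total, every HC library lay below every library of the other cell types, while the KC libraries were the most unequal. TMM normalization factors over the 16 libraries were 0.497 to 0.588 in HCs and 1.01 to 1.47 in the other cell types. Such scaling raises HC levels relative to the rest, so that this separation holds for library totals alone. The KC libraries labelled WT held 2.50% (WT 31) and 3.34% (WT 39), and those labelled KO 1.24% (KO 27) and 0.673% (KO 43).

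**Figure D1:**
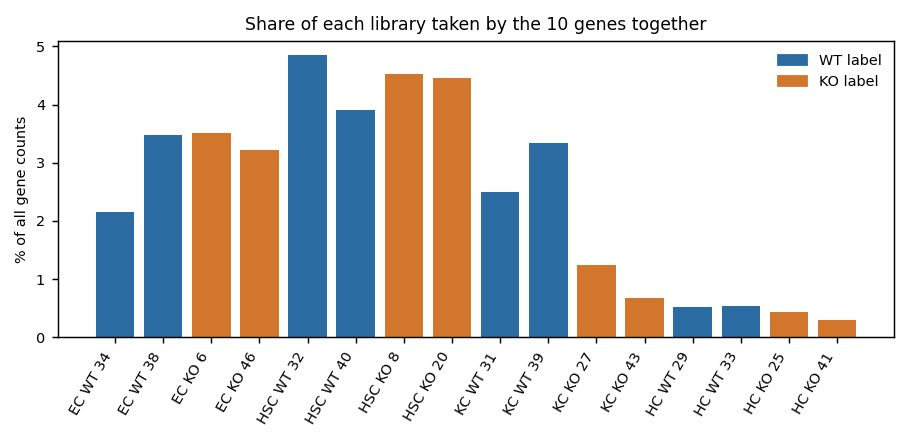
Share of all gene counts (%, vertical axis) taken by the 10 immediate early genes together, with 1 bar for each of the 16 libraries, coloured by label. HSC bars stand between 3.91% and 4.85%, HC bars at 0.533% or less, and the KC bars labelled KO stand below both KC bars labelled WT.

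Of the Fos and Jun genes, Fos had the highest mean CPM in each cell type, but not the highest level in each library. In both KC libraries labelled KO it lay below Jun and Junb, and in both HC libraries labelled KO below Jun. Fos stood among the 5 most counted genes of all in 7 of the 8 EC and HSC libraries. The exception was EC WT 34, where it was in place 13. In HSCs, Fos had 13110 and 11224 CPM under the WT label and 13978 and 14713 CPM under the KO label. ECs had 4628 and 11754 CPM (WT) and 13719 and 10948 CPM (KO), so that 1 EC library, WT 34, lay well under the others. KCs had 3896 and 7899 CPM (WT) against 1119 and 355 CPM (KO), and HCs 1514 and 1384 CPM (WT) against 956 and 489 CPM (KO). The mean was 13256 ± 1505 CPM (SD, n = 4) in HSCs, 10262 ± 3932 in ECs, 3317 ± 3413 in KCs and 1086 ± 464 in HCs, and the ranges of neighbours in this order overlapped.

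Fosb, which encodes a second Fos protein, had far lower means, although in KC KO 43 it lay above Fos (431 against 355 CPM). Its mean was 1256 ± 449 CPM (SD, n = 4) in HSCs, 612 ± 218 in ECs, 561 ± 182 in KCs and 19.3 ± 8.71 in HCs, and the HC libraries lay under all others. Per kilobase of exon, which makes genes comparable, Fos made up 96.3% ± 1.25 (SD, n = 4) of the 4 Fos family genes (Fos, Fosb, Fosl1 and Fosl2) in HSCs, 96.7% ± 2.31 in ECs and 99.1% ± 0.362 in HCs. In KCs its part ranged from 65.0% to 96.1%, with Fosb at 3.65% to 29.7%. Fosl1 and Fosl2 stayed at or under 3.01% of the family in every library.

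Jun and Junb, the partners of Fos in AP-1, followed the same order of cell types. Jun had 7962 ± 846 CPM (SD, n = 4) in HSCs, with no library overlapping the 4423 ± 548 CPM of ECs, and then 2091 ± 1694 in KCs and 968 ± 193 in HCs. Junb had 4951 ± 443 CPM in HSCs, 3396 ± 357 in ECs, 1871 ± 689 in KCs and 418.6 ± 86.2 in HCs, and no neighbouring ranges overlapped. In the Jun family per kilobase of exon, Jun held 53.6% ± 2.34 (SD, n = 4) in HSCs, 48.1% ± 4.62 in ECs and 62.2% ± 2.90 in HCs, and from 19.6% to 56.6% in KCs, with Junb taking nearly all of the rest. Jund was the exception among the 10, at 32.6 ± 17.4 CPM in ECs, 23.8 ± 6.50 in KCs, 11.9 ± 3.34 in HSCs and 2.78 ± 0.0834 in HCs. Over 52.6% of its exon bases Jund overlaps a gene on the opposite strand, Gm11175, which was at 0 in every library. The strand setting of the counting is not given in the sources used here, so the level of Jund is uncertain.

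Egr1, a zinc finger factor induced with Fos, had 4307 ± 874 CPM (SD, n = 4) in HSCs, 2402 ± 621 in ECs, 1271 ± 1026 in KCs and 489.9 ± 146 in HCs. Ier2, a small nuclear protein of the early response, had 2136 ± 336 CPM in HSCs, 800.4 ± 688 in KCs, 778 ± 110 in ECs and 309 ± 83.5 in HCs. Atf3, a stress-induced member of the ATF/CREB family, was the most even across cell types, at 1541 ± 618 CPM in HSCs, 1441 ± 804 in KCs, 1076 ± 192 in ECs and 647 ± 98.1 in HCs. In Atf3 the highest HC library (776 CPM) lay just under the lowest EC library (792 CPM) and above the lowest libraries of HSCs (770.4 CPM) and KCs (379 CPM).

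Dusp1 and Nr4a1 did not lead in HSCs. Dusp1, which dephosphorylates the MAP kinases that induce the family, had 6961 ± 1839 CPM (SD, n = 4) in ECs, 6796 ± 325 in HSCs and 5132 ± 3088 in KCs, whose ranges overlapped, and 403 ± 115 in HCs. Nr4a1, an orphan nuclear receptor, had 2892 ± 1329 CPM in KCs, 2156 ± 633 in HSCs, 947 ± 242 in ECs and 123 ± 14.4 in HCs, and the KC and HSC ranges overlapped. Thus 7 of the 10 genes had their highest mean in HSCs, 2 (Jund and Dusp1) in ECs and 1 (Nr4a1) in KCs, while HCs had the lowest mean for 10 of 10. In 5 of the 10 (Fosb, Junb, Jund, Dusp1 and Nr4a1) all 4 HC libraries lay below all 12 others. With TMM normalization over the 16 libraries, which raises HC levels relative to the rest, the counts were 8 of 10 highest in HSCs and 8 of 10 lowest in HCs. In bulk libraries, fewer cells expressing a gene and less RNA of it per cell cannot be told apart.

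**Figure D2:**
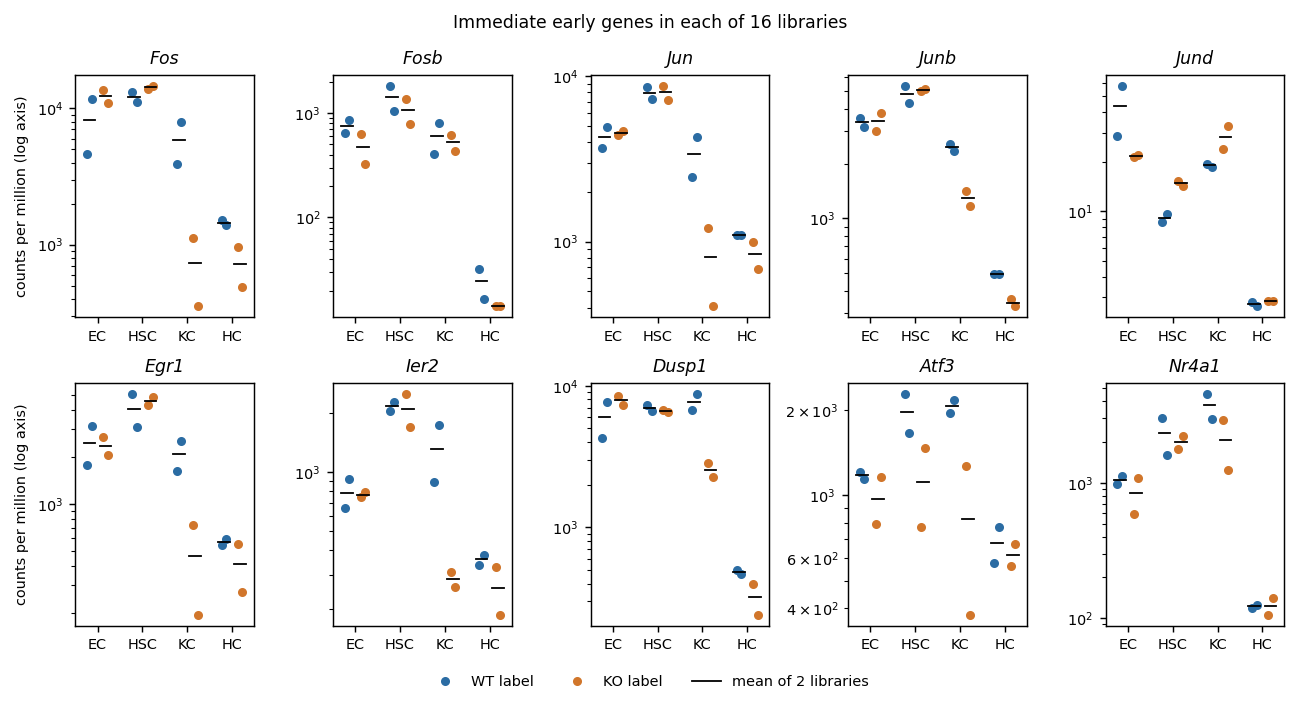
Level of each gene in CPM (log axis, a panel per gene) in the 4 cell types (horizontal axis), with 1 point per library coloured by label and a black bar at the mean of the 2 libraries of a group. HC points are lowest in most panels, and in KCs the KO points lie below the WT points in 8 panels.

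In KCs, most of the genes were lower under the KO label. KCs are the resident macrophages of the sinusoid and were not the target of the deletion. Fos was at 3896 and 7899 CPM under WT and at 1119 and 355 CPM under KO, a log2 fold change (KO minus WT) of -3.04 ± 0.60 (SE), or 8.25-fold lower. Ier2 was at 892 and 1738 CPM against 310 and 261 CPM, a log2 fold change of -2.23 ± 0.36. Both labels were separate in these 2 genes, and the libraries of 1 label differed by up to 3.15-fold.

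Egr1 had 1624 and 2531 CPM under WT and 734 and 195 CPM under KO (log2 fold change -2.22 ± 0.61). Jun had 2455 and 4296 CPM against 1205 and 409 CPM (-2.11 ± 0.54). Dusp1 had 6702 and 8702 CPM against 2863 and 2261 CPM (-1.64 ± 0.29), and was the most even of these within a label. Library KO 43 was the lowest of the 4 KC libraries in each of these 5 genes, and WT 39 the highest.

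Atf3 had 1955 and 2161 CPM under WT and 1266 and 379 CPM under KO (-1.40 ± 0.54), and Junb 2560 and 2353 CPM against 1405 and 1165 CPM (-1.0 ± 0.29). Nr4a1 had 4498 and 2941 CPM against 2888 and 1243 CPM (-0.94 ± 0.48), so that 1 library of each label nearly met. Fosb, at 403 and 795 CPM under WT and 617 and 431 CPM under KO, overlapped (-0.22 ± 0.37). Jund ran the other way, with 19.5 and 18.7 CPM under WT and 24.1 and 32.9 CPM under KO (0.52 ± 0.37). Both KO libraries thus lay below both WT libraries in 8 of 10 genes, where 16.1% of all 13867 genes tested did so. The median log2 fold change over the 10 genes was -1.52, beside -0.02 over all genes tested.

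In edgeR's quasi-likelihood test with Benjamini-Hochberg adjustment over all genes, 0 of the 10 passed an adjusted p of 0.05 in KCs, where 0% of all genes did, and the adjusted p was 0.933 for 9 of the 10 and 0.974 for Fosb. Unadjusted p-values were under 0.05 for 7 of the 10 (Fos, Jun, Junb, Egr1, Ier2, Dusp1 and Atf3), beside 5.09% of all genes. DESeq2 gave an adjusted p under 0.05 for 5 of the 10, beside 0.51% of the genes it adjusted: 4.1e-06 for Fos, 4.1e-06 for Ier2, 0.00021 for Dusp1, 0.0036 for Jun and 0.0053 for Egr1. By edgeR without a filter on low counts the same 5 genes passed, beside 0.704% of 22595 genes. The call in KCs thus depended on the tool and the filter, with 2 libraries a label. The labels do not say whether libraries came from separate mice, so that p-values measure the spread between these libraries.

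Left-out libraries moved these values. Each of these fits leaves 1 library under a label, so that effect sizes alone are given. Without KO 43, the median log2 fold change of the 10 genes in KCs was -1.22. Without KO 27 it was -2.05, without WT 31 it was -1.53 and without WT 39 it was -1.49. Fos ranged from -4.04 to -2.47 and Dusp1 from -1.78 to -1.52 over these 4 fits. Nr4a1 ranged from -1.63 to -0.47, and Fosb changed sign without WT 39, at 0.21.

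**Figure D3:**
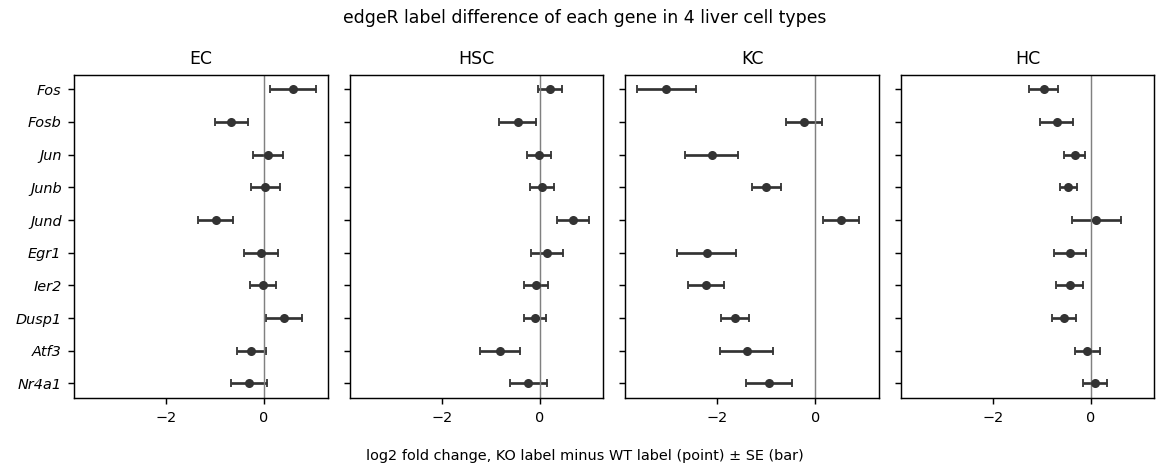
Log2 fold change, KO minus WT label (horizontal axis), of each gene by edgeR in the 4 cell types (panels). Points are estimates and bars ± SE from 2 libraries a label. In KCs 9 of 10 points lie left of 0, down to -3.04 for Fos, while the HSC points lie between -0.82 and 0.68.

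Markers of other cells were not level in the KC libraries. The 15 hepatocyte markers summed to between 7391 and 10931 CPM under WT and between 12197 and 14978 CPM under KO, and the 10 KC markers to between 48884 and 67856 CPM against between 46093 and 46764 CPM. Sums of the 10 endothelial markers were 749 to 992 CPM under WT and 1059 to 1278 CPM under KO, and those of the 10 stellate cell markers 162 to 299 CPM and 182 to 572 CPM. Of the rarer cells, the 8 neutrophil markers summed to 17.9 to 22.4 CPM under WT and 21.6 to 267.9 CPM under KO, the 10 lymphocyte markers to 61.0 to 95.7 CPM and 94.5 to 113 CPM, and the 6 erythroid markers to 207 to 739.9 CPM and 299 to 544 CPM. Their part in the result was not tested. Mitochondrial counts were between 0.768% and 1.001% in the 4 KC libraries.

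In HCs, 8 of the 10 genes had a log2 fold change below 0, at far lower levels than in KCs labelled WT. Fos was at 1514 and 1384 CPM under WT and at 956 and 489 CPM under KO (log2 fold change -0.96 ± 0.30, from -1.44 without KO 25 to -0.59 without KO 41), Junb at 493 and 492 CPM against 359 and 330 CPM (-0.45 ± 0.18) and Dusp1 at 501.5 and 468 CPM against 400 and 242 CPM (-0.54 ± 0.25). Both KO libraries lay below both WT libraries in 6 of 10 genes (Fos, Fosb, Jun, Junb, Ier2 and Dusp1), where 23.2% of the 11548 genes tested did. With TMM normalization within HCs this held for 5 of 10, beside 20.9% of all. The median log2 fold change was -0.43 over the 10 genes and -0.02 over all. By edgeR 0 of 10 passed the adjusted p, where 0% of all genes did, 2 of 10 (Fos and Junb) had an unadjusted p under 0.05 beside 7.11% of all genes, and DESeq2 called 0 of 10 beside 0.246%.

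In the same HC libraries, sums of KC, endothelial and erythroid markers were lower under the KO label. The 10 KC markers summed to 260 and 535 CPM at the lowest and highest under WT and to 159 and 217 CPM under KO, the 10 endothelial markers to 123 and 132 CPM against 82.8 and 100.3 CPM, and the 10 stellate cell markers to 136 and 163 CPM against 111 and 143 CPM, which overlap. The 6 erythroid markers summed to 165 and 268 CPM under WT and to 26.6 and 30.4 CPM under KO. The 10 lymphocyte markers summed to 2.80 and 4.08 CPM against 2.16 and 8.32 CPM, and the 8 neutrophil markers to 2.17 and 3.2 CPM against 4.85 and 15.9 CPM. The part of these in the lower values of HCs was not tested.

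In ECs, the cells at which the deletion was aimed, the 10 genes did not move together. Fos had a log2 fold change of 0.59 ± 0.48 and Dusp1, at 4306 and 7693 CPM under WT and 8517 and 7328 CPM under KO, one of 0.40 ± 0.37. Jun (0.08 ± 0.30), Junb (0.03 ± 0.30), Egr1 (-0.06 ± 0.35) and Ier2 (-0.03 ± 0.27) lay close to 0. Jund, at 28.7 and 58.3 CPM under WT and 21.4 and 22.0 CPM under KO, had the largest difference, at -0.99 ± 0.37, which was -1.38 without WT 34 and -0.43 without WT 38. The labels did not overlap in 2 of 10 genes, where 48.2% of all genes tested did not. By edgeR 0 of 10 passed the adjusted p, where 2.08% of 14631 genes did, Jund was the 1 gene with an unadjusted p under 0.05, beside 15% of all genes, and DESeq2 called 0 of 10 beside 6.39%. Without WT 38, which leaves WT 34 as the 1 WT library, Fos had the largest difference, with a log2 fold change of 1.39. Without WT 34 it was 0.10.

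HSCs, with the highest levels, had small differences between labels in most of the genes. Jun was at 8596 and 7249 CPM under WT and 8786 and 7216 CPM under KO (log2 fold change -0.01 ± 0.24), and Junb at 5363 and 4327 CPM against 5003 and 5112 CPM (0.04 ± 0.24). Atf3 had the largest negative value, with 2270 and 1657 CPM against 770.4 and 1466 CPM (-0.82 ± 0.40, but -0.38 without KO 8 and -1.44 without KO 20), and Jund the largest positive one, at 8.58 and 9.60 CPM against 15.3 and 14.3 CPM (0.68 ± 0.34). Labels did not overlap in 3 of 10 genes, where 39.8% of all genes tested did not. By edgeR 0 of 10 passed, where 0% of 14390 genes did, 0 of 10 had an unadjusted p under 0.05 beside 8.75% of all genes, and DESeq2 called 0 of 10 beside 2.7%.

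Whether the label difference itself differed among the 4 cell types was tested over the 16 libraries. By edgeR 0 of the 10 genes passed an adjusted p of 0.05, where 1.17% of 17214 genes did. The lowest values were 0.073 for Ier2, 0.10 for Fos and 0.13 for Dusp1, and 6 of the 10 had an unadjusted p under 0.05 (Fos, Jun, Jund, Egr1, Ier2 and Dusp1), beside 10.6% of all. DESeq2's likelihood ratio test gave adjusted p-values of 0.00011 for Ier2, 0.00044 for Dusp1, 0.00055 for Fos and 0.013 for Jun, and was above 0.05 for the other 6, so that it called 4 of 10 beside 7.58% of the genes it adjusted. Cell types may share a liver, while this test treats the libraries as independent.

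Libraries of 1 group also differed in these genes. In KCs labelled KO, the larger of both libraries exceeded the smaller by a median of 1.88-fold over the 10 genes, up to 3.77-fold for Egr1, where the median over all genes of at least 10 CPM was 1.24-fold. KCs labelled WT gave 1.54-fold against 1.36-fold, HCs labelled KO 1.45-fold against 1.19-fold and ECs labelled WT 1.38-fold against 1.28-fold. The 2 HC libraries labelled WT were the closest, at 1.09-fold against 1.20-fold, and HSCs labelled KO came next, at 1.17-fold against 1.26-fold. Many of the genes also varied together across libraries. Each gene was centred on the mean of its cell type over both labels, so that label differences stayed in these values. The 36 pairs of the 9 genes other than Jund had a median Pearson r of 0.71 over 16 libraries, and 36 of 36 were positive. Pairs with Fosb were the weakest, from 0.10 to 0.34. Without the KC libraries the median was 0.37 over 12 libraries, with 26 of 36 positive. There Fos had an r of 0.98 with Dusp1, but of -0.22 with Atf3 and -0.23 with Nr4a1. Jund had an r of -0.35 with the average of the other 9. Pairs share their libraries and the scaling to the library total, so that these values are a description.

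**Figure D4:**
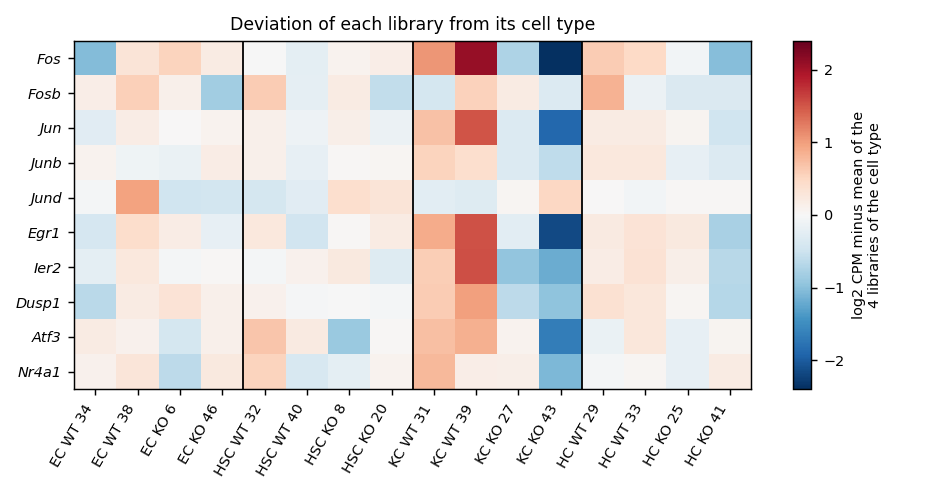
Log2 CPM of each gene (rows) in each library (columns) minus the mean of the 4 libraries of its cell type (colour scale, red higher, blue lower), with black lines between cell types. The KC columns hold the widest deviations, from 2.08 in WT 39 to -2.40 in KO 43, both for Fos, and the HSC columns lie between -0.90 and 0.66.

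The genes whose centred values were most like the average of the 10, of 9771 other genes that averaged 1 CPM or more in each cell type, were Inpp5f (r = 0.94), AU041133 (0.91), Cbx8 (0.91), Med26 (0.90), Alkbh4 (0.90), Zfp74 (0.90), AW209491 (0.89) and Btg2 (0.88), over 16 libraries. The median over all genes compared was 0.05. Without the KC libraries Inpp5f stayed at 0.90 and the other 7 lay between 0.26 and 0.66. Btg2, an antiproliferative early gene, was the 1 of these 8 on the list of other immediate early genes.

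That list holds 40 further genes of the early response. In KCs it did not share the direction of the 10 genes as a whole, with a median log2 fold change of -0.09 and 22 of 40 below 0. By edgeR 0 of 40 passed the adjusted p, where 0% of all genes did. At an unadjusted p under 0.05, 12 lay lower under KO and 5 lay higher, beside 5.09% of all genes. DESeq2 called 5 of 40, all lower (Klf2, Zfp36, Sgk1, Ppp1r15a and Id1), beside 0.51% of the genes it adjusted. Zfp36, which destabilises AU-rich mRNAs, was at 1956 and 2196 CPM under WT and 927 and 670.4 CPM under KO (log2 fold change -1.44 ± 0.30). Ppp1r15a, which directs a phosphatase to eIF2α, was at 1420 and 1938 CPM against 769 and 603 CPM (-1.34 ± 0.29), and Btg2 at 1891 and 2041 CPM against 1092 and 345 CPM (-1.53 ± 0.52). Id1, an inhibitor of basic helix-loop-helix factors, had the lowest value, at 84.6 and 310.5 CPM against 54.2 and 27.1 CPM (-2.29 ± 0.62).

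Other early genes of KCs had the opposite sign. Plk3, a stress-responsive kinase, was at 51.9 and 39.1 CPM under WT and 111 and 126 CPM under KO (1.31 ± 0.33), Socs3, the feedback inhibitor of cytokine receptors, at 281 and 364 CPM against 505 and 648.5 CPM (0.80 ± 0.30), and Nr4a3, a relative of Nr4a1, at 26.8 and 15.4 CPM against 47.5 and 49.8 CPM (1.12 ± 0.42). All 3 had an adjusted p of 0.933 by edgeR and were above 0.05 by DESeq2. The early genes of KCs thus lay on both sides of 0.

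**Figure D5:**
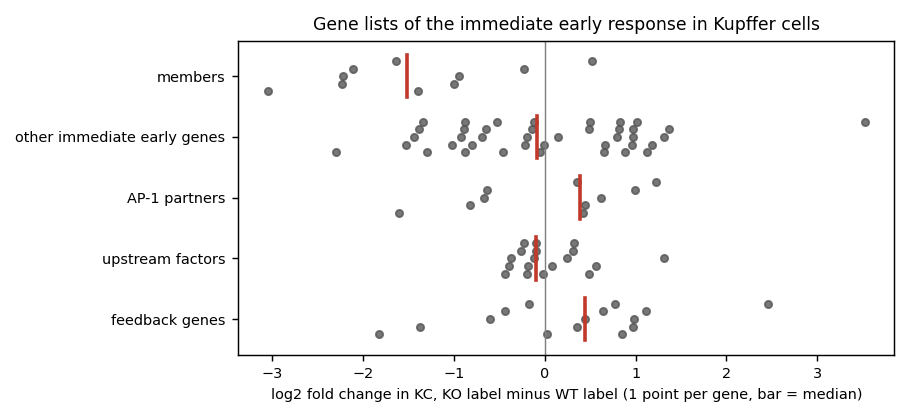
Log2 fold change in KCs, KO minus WT label (horizontal axis), with 1 point per gene tested and a red bar at the median, for the 10 genes (members) and 4 further lists (rows). The median is -1.52 for the 10 genes and lies between -0.10 and 0.44 for the other lists.

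Upstream of the family, the 18 transcription factors and kinases of the MAP kinase and CREB routes lay close to 0 in KCs. Their median log2 fold change was -0.10, from -0.44 to 1.31, and 0 of 18 passed the adjusted p by edgeR or DESeq2. Crem, which encodes cAMP-inducible relatives of CREB, was the 1 with an unadjusted p under 0.05, beside 5.09% of all genes. It was at 64.5 and 38.7 CPM under WT and 120 and 149.6 CPM under KO. Srf was at 7.51 and 8.87 CPM under WT and 12.7 and 7.51 CPM under KO. Of 16 feedback genes 15 were tested, with a median of 0.44. Among them was Nab2, the corepressor of Egr1, at 7.18 and 6.66 CPM under WT and 20.3 and 57.9 CPM under KO (2.46 ± 0.59, edgeR adjusted p 0.933, DESeq2 0.012). Nab2 was the highest of these lists among genes that averaged 10 CPM or more under 1 label, a limit it passed through the KO label alone. The ERK phosphatase Dusp6 was at 423 and 818 CPM against 279 and 83.4 CPM (-1.82 ± 0.59). edgeR called 0 of the 15 feedback genes, with 3 at an unadjusted p under 0.05 (Dusp6, Dusp8 and Nab2), beside 5.09% of all genes. DESeq2 called Nab2, beside 0.51% of the genes it adjusted. Of the 10 AP-1 partners, 4 lay below 0 and 6 above, with a median log2 fold change of 0.39. edgeR called 0 of them, and DESeq2 called 1 lower and 1 higher, beside 0.51% of the genes it adjusted. The higher one, Mafk, a small Maf protein, was at 96.2 and 122 CPM under WT and 267.1 and 260.9 CPM under KO (1.23 ± 0.27, edgeR adjusted p 0.933, DESeq2 0.029).

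In the other cell types 1 gene of these lists passed edgeR's adjusted p. Errfi1, the feedback inhibitor of the EGF receptor, was at 225 and 279 CPM in ECs labelled WT and at 50.8 and 51.0 CPM in ECs labelled KO (log2 fold change -2.31 ± 0.22, adjusted p 0.020). HCs held 565 to 1198 CPM of Errfi1, which was among the hepatocyte-enriched genes, and the unequal hepatocyte RNA of the EC libraries is given above. Its part in the difference of Errfi1 was not tested. In the list of 40, 39 genes were tested in ECs with 8 at an unadjusted p under 0.05 (5 lower, 3 higher), beside 15% of all genes, 39 in HSCs with 3 (3 lower), beside 8.75%, and 34 in HCs with 5 (4 lower, 1 higher), beside 7.11%. DESeq2 called 6, 1 and 0 of them, beside 6.39%, 2.7% and 0.246% of the genes it adjusted. The highest value of the 4 lists among genes that averaged 10 CPM or more under at least 1 label was that of Ctgf in ECs (1.52 ± 0.95), Id1 in HSCs (0.94 ± 0.64) and Klf6 in HCs (0.97 ± 0.27). Ctgf passed that limit through the KO label alone, at 1.74 and 8.86 CPM under WT and 26.1 and 4.87 CPM under KO. The lowest outside ECs was that of Ptgs2 in HSCs (-3.01 ± 1.03) and Rhob in HCs (-0.96 ± 0.53), which passed it through the WT label alone. Ptgs2 was at 26.1 and 3.84 CPM under WT and 1.18 and 2.56 CPM under KO. The adjusted p of edgeR was above 0.05 for these 5. That of DESeq2 was 0.037 for Ptgs2 in HSCs and above 0.05 for Ctgf, Id1, Klf6 and Rhob.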

How the data were processed

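The authors deposited raw counts of reads per Ensembl mouse gene, 1 table per library, without normalization. Per the labels, the submitters' processing notes name Trimmomatic 0.32, HISAT2 2.1.0, HTSeq 0.9.1 and edgeR with GRCm38. The annotation release and the strand setting are not given in the sources used here, and the series and sample descriptions name different library preparations, so that antisense overlap may alter counts. The 5 summary lines of HTSeq were left out. Levels are CPM of the library total. The label comparison of a cell type used edgeR 4.0.16 (R 4.3.3, filterByExpr, TMM, quasi-likelihood test, Benjamini-Hochberg adjustment), with DESeq2 1.42.0 as an alternative. The difference among cell types was tested as label by cell type terms over 16 libraries. Scripts were tested on simulated data. Exon lengths came from GENCODE M21, which held 98.9% of the identifiers. Hepatocyte-enriched genes (857) had at least 10 CPM in WT HCs and at least 8 times the mean of WT KCs. Centred values used log2 CPM with a prior count of 2. The 10 genes and all lists were chosen with earlier results of these data known. Named are the 10 genes, list genes past the adjusted p, the highest and lowest list genes with a mean of 10 CPM or more under at least 1 label, by cell type, and the 8 most alike. Klf2, Zfp36, Ppp1r15a, Btg2, Sgk1, Plk3, Socs3, Nr4a3, Crem, Srf, Dusp6, Dusp8 and Mafk were chosen after their values were seen, and 1 list gene is not reported here. Among the markers, the same rule gave Pck1 (lowest) and Vsig4 in ECs, Cps1 and Clec4f in HSCs, Marco and Ngp in KCs and Alas2 and Ass1 in HCs. Figures were drawn with matplotlib 3.10.9 in Python 3.11.15.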

Additional observations from a re-analysis of the deposited data

How the results depend on the processing

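Of the 10 genes, edgeR called 0 in each cell type. Over the alternatives the count in KCs was 5 with DESeq2, beside 0.51% of the genes it adjusted. Without a filter on low counts it was 5 in KCs, beside 0.704% of all genes, and 1 (Fos) in HCs, where 227 of 19933 genes passed. Fits without 1 library leave 1 library under a label, so that their counts of calls are not given. In ECs, Fos had a log2 fold change of 1.39 without WT 38 and of 0.10 without WT 34. RLE size factors, library totals alone, a minimum of 10 counts in each library, 1 fit of all 16 libraries, no hepatocyte-enriched genes (not run in HCs) and an adjusted p under 0.1 gave 0 in each cell type where they were run. The test of a difference among cell types called 4 with DESeq2, beside 7.58% of the genes it adjusted. It called 5 without the filter, where 1776 of 29481 genes passed, and 1 at an adjusted p under 0.1 (Ier2). Its calls also changed without KC KO 27, which leaves 1 KC library under the KO label.

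Of the 40 other early genes, 1 was called in ECs. The count was 2 in 1 fit of all 16 libraries, 3 with a minimum of 10 counts in each library and 6 with DESeq2. It was 8 without the filter and 3 at an adjusted p under 0.1. Without hepatocyte-enriched genes, which leaves Errfi1 out, 0 were called, where 0 of all 13798 genes tested passed. Counts from fits without 1 library are not given, because these leave 1 library under a label. In HSCs 0 were called, against 1 with DESeq2 and 2 without the filter, in KCs 0 against 5 and 6, and in HCs 0 against 5 without the filter. Over all genes, edgeR without the filter called 1259 of 23953 in ECs and 663 of 24592 in HSCs. It called 159 of 22595 in KCs and 227 of 19933 in HCs. In ECs it called 423 of 17214 in 1 fit of all 16 libraries and 489 of 12307 with a minimum of 10 counts. At an adjusted p under 0.1 it called 529 of 14631 in ECs. The cause of the differences between settings was not tested.

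Of the log2 fold changes of the 10 genes under an alternative, 270 came from settings that kept all libraries, and these 270 moved by less than their SE. Of the 160 from leaving out 1 library, 42 moved by more. Over both kinds of alternative together, the sign changed in 10 of 110 values in ECs, 10 of 110 in HSCs, 1 of 110 in KCs (Fosb) and 4 of 100 in HCs. No paired analysis was possible because the label numbers are not shared between groups. The depth limits Jund in HCs, at 2.78 CPM.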
